A study of Homo sapiens with 60 samples.

Results

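The liver X receptors, their partner and genes of sterol export were followed in HT29, a colorectal adenocarcinoma line of human origin, after treatment with water extracts of 6 herbal medicines. The 7 genes were chosen by name: NR1H2 and NR1H3 (the receptors), RXRA (a partner), ABCG1, ABCA1 and LPCAT3 (genes these receptors are known to switch on) and ABCA2 (a relative of ABCA1). All 7 were found among the 60675 genes of the deposited count table, and all 7 were among the 16609 that passed a filter on low counts. RNA was sequenced after 24 h in 60 libraries that form 20 groups of 3. Zingiberis Rhizoma Recens (fresh ginger here), Zingiberis Rhizoma (ginger here), Pinelliae Tuber, Scutellariae Radix and Zizyphi Fructus were given at 500, 100 and 20 µg/mL. For Coptidis Rhizoma the doses were 290, 58 and 11.6 µg/mL; per the series text, an extract whose 20% inhibitory concentration lies under 500 µg/mL was given at that concentration and at dilutions of it. Each extract thus has a high, a medium and a low dose, and the high dose is 25 times the low one. Wortmannin, an inhibitor of phosphoinositide 3-kinase, was the positive control at 10 µM, and vehicle was DMSO (0.1% in the sample labels, 2% in the series text). Whether the replicates of a group were grown as separate cultures is not stated, so p-values measure the spread between these libraries, which may be technical. Codes in the sample descriptions put vehicle, wortmannin, both gingers, Pinelliae with Scutellariae, and Coptidis with Zizyphi in different numbered sets, with no word on what a set is. Treatment and set cannot be told apart against vehicle, while the doses of an extract lie within a set. All values come from 1 cell line.

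Liver X receptors are nuclear receptors that bind oxysterols, the oxidised forms of cholesterol. Paired with a retinoid X receptor, they sit on a DNA element called DR4, a pair of hexamers of the AGGTCA type spaced by 4 bases, and switch on genes that move cholesterol out of the cell. Sterol-poor cells instead release SREBP2, the factor that drives cholesterol synthesis and uptake through the LDL receptor. In the intestine, this system limits how much cholesterol the epithelium keeps, and ABCA1 there loads cholesterol onto apolipoprotein A-I.

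Of the 7 genes, 6 had windows in the RefSeq promoter table (GRCh38.p14), 11 windows in all, each from 250 bases before to 50 bases after a start site. The 250 bases before the ABCA1 start are shown because they hold the DR4-type element that the liver X receptors are known to use at this gene, and ABCA1 was called in opposite directions in 2 extracts. They lie at chr9:104928156-104928405 on the minus strand, and the capitals mark the element.
ABCA1 upstream of the start: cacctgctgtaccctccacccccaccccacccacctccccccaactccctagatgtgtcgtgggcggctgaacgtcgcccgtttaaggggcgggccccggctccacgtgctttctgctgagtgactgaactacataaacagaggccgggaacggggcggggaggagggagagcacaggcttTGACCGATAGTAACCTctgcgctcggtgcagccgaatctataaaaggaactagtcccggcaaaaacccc
The element occupies chr9:104928209-104928224, its first base lies at -69 from the start site, and on the opposite strand it reads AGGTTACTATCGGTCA. It was matched with the relaxed letters NGGTNANNNNNGGTNA on both strands, which were chosen with this site known. Of 35116 promoter windows 0.624% hold a match to those letters, and 0.0199% hold the consensus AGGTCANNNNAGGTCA, which the ABCA1 window does not. No other window of the 6 genes held the relaxed letters. The E-box CACGTG, present in 7.26% of windows, lies at -147 in the ABCA1 window and in no other window of the 6 genes. The CCAAT box, present in 34.6% of windows, occurs in LPCAT3 windows (3 matches) and an NR1H3 window (1 match). A match describes letters only and was not tested as a binding site.

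HT29 cells carried far more message for the receptors and their partner than for the exporters. Levels are counts per 1e6 (CPM) after scaling between libraries; for comparison between genes they were divided by the kilobases of merged exons in GENCODE 29 and averaged over the 60 libraries. On that scale LPCAT3 stood at 17.1, RXRA at 17.0, ABCA2 at 15.9, NR1H3 at 10.9, NR1H2 at 8.06, ABCG1 at 1.13 and ABCA1 at 0.458 CPM per kilobase. The first 2 could not be ordered, since LPCAT3 was the higher in 30 of 60 libraries and came second with the longest transcript as the length. LPCAT3 also shares 3100 of its 4725 exon bases with EMG1 (mean 49.2 CPM) on the opposite strand. The strand setting of the counting is not given, so the level and place of LPCAT3 are uncertain. RXRA exceeded ABCA2 in 46 of 60 libraries and ABCA2 exceeded NR1H3 in 58 of 60. NR1H3 exceeded NR1H2 in 59 of 60, and NR1H2 exceeded ABCG1, and ABCG1 exceeded ABCA1, in all 60. The low exporters rest on few reads, 46 to 270 per library for ABCA1 and 49 to 1140 for ABCG1, against 2055 to 6455 for RXRA.

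Libraries held 11.1e6 to 34.4e6 counts. All 10 colon epithelium markers were present, summing to 10580 to 14296 CPM per library. Most of that sum was KRT8 and KRT18, which averaged 6399 and 3540 CPM over the 60 libraries. CDX1, CDX2 and CEACAM5 were low, at means of 1.12, 5.89 and 6.69 CPM. Of 8 macrophage and leukocyte markers, 6 averaged under 0.1 CPM (PTPRC, CSF1R, MRC1, CD163, FCGR3A and TYROBP), CD163 was at 0, and the list summed to 3.63 to 7.57 CPM. The fibroblast and endothelial list summed to 3.12 to 5.26 CPM, with COL1A2, COL3A1, DCN, PDGFRB and VWF under 0.1 CPM. In wortmannin the macrophage and leukocyte list summed to 6.81 to 7.57 CPM, against 4.34 to 5.53 CPM with vehicle, nearly all CD14 and ITGAM, and its part in the wortmannin results was not tested. In Coptidis that list summed to 3.63 to 4.57 CPM at the high dose, against 5.03 to 5.65 CPM at the low dose, and ITGAM fell by 0.72 on the log2 scale (adjusted p = 0.00157). Of 3 fibroblast and endothelial markers tested there, LUM rose by 0.93 (adjusted p = 0.00114) and PECAM1 fell to 0.596 CPM, against 1.47 CPM at the low dose (adjusted p = 2.57e-06). TTR, 1 of 2 hepatocyte markers tested, fell by 1.65 (adjusted p = 0.0102). Its levels were very low, 0.124 ± 0.119 CPM at the high dose against 0.403 ± 0.166 CPM at the low dose (SD), and the libraries overlapped. Of the 10 colon markers 3 rose and 4 fell, with CEACAM5 at -1.60 (adjusted p = 3.21e-14). In Scutellariae the macrophage and leukocyte sums of both doses overlapped, with ITGAM at 0.95 (adjusted p = 1.56e-05) and CD14 at -0.75 (adjusted p = 0.00135). Of the colon markers 2 rose there, CEACAM5 by 0.82 (adjusted p = 3.54e-07) and KRT20 by 0.56 (adjusted p = 2.46e-14), and 2 fell, among them VIL1 by 0.35 (adjusted p = 2.01e-09). The part of these changes in the results was not tested. The hepatocyte list summed to 304 to 391 CPM, nearly all SERPINA1, with ALB, APOA1, APOB, CYP3A4, CYP7A1 and FGB under 0.1 CPM and APOB at 0. In bulk RNA, fewer cells that make a message and less of it per cell cannot be told apart. In the Coptidis high libraries 3.77 to 3.99% of counts were mitochondrial, against 7.67 to 13.7% in the other 57, and ribosomal protein genes took 6.43 to 7.24% of counts; the part of either in the results below was not tested. Replicate 1 of vehicle, replicate 1 of fresh ginger low, replicate 2 of ginger high and replicate 3 of Zizyphi high stood apart in an earlier analysis of these data; ribosomal protein genes took 6.32 to 8.23% of their counts and at most 5.85% in the other 53 libraries outside Coptidis high.

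ABCG1 (chr21:42199689-42297244, plus strand; GRCh38, like all gene positions here), which passes cholesterol to high-density lipoprotein, rose with the dose of Coptidis Rhizoma at both steps. At the low dose its libraries had 6.89, 6.19 and 6.71 CPM, at the medium dose 10.6, 10.5 and 11.2 CPM, and at the high dose 34.1, 38.0 and 38.8 CPM. The 3 doses did not overlap, and every Coptidis library, including those at the low dose, lay above the vehicle libraries at 3.57, 4.10 and 4.22 CPM. The low-dose libraries of Zizyphi (4.79, 5.40 and 5.16 CPM) and ginger (5.18, 5.25 and 5.18 CPM) also lay above vehicle. Those of fresh ginger, Pinelliae and Scutellariae overlapped it. In Coptidis high against low dose, the mean was 36.9 ± 2.51 CPM against 6.60 ± 0.361 CPM (SD, n = 3 each). The log2 change was 2.49 ± 0.09 (approximate SE) or 5.61-fold, with an adjusted p of 3.75e-28 in edgeR's quasi-likelihood test with Benjamini-Hochberg adjustment. Of the 16609 genes tested, 93 had a higher log2 change in that comparison. The step from low to medium gave 0.71 ± 0.10 (adjusted p = 2.16e-06), with 275 genes higher, and the step from medium to high 1.78 ± 0.09 (adjusted p = 1.57e-22). ABCG1 was the only one of the 7 genes called between medium and low dose, where 1.31% of all genes were called.

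ABCA1 (chr9:104781002-104928237, minus strand), the exporter that loads apolipoprotein A-I, moved in opposite directions in 2 extracts. In Coptidis it had 7.95, 8.04 and 9.19 CPM at the high dose, against 5.89, 5.58 and 5.48 CPM at the low dose. All high-dose libraries lay above the low-dose ones, and the log2 change was 0.57 ± 0.15 (adjusted p = 0.00109). In Scutellariae Radix it had 4.53, 4.54 and 4.43 CPM at the low dose, 3.90, 3.70 and 3.97 CPM at the medium dose and 2.21, 2.49 and 2.75 CPM at the high dose. These doses did not overlap either, and high against low dose gave 2.48 ± 0.273 against 4.50 ± 0.0571 CPM (SD, n = 3 each), a log2 change of -0.85 ± 0.18 (adjusted p = 0.000465). There 575 of the 16609 genes had a lower log2 change. The medium-to-high step in Scutellariae, where 5.09% of all genes were called, was -0.63 ± 0.18 (adjusted p = 0.0269), but without high replicate 1 or 2, or without medium replicate 1, 2 or 3, it was no longer called (adjusted p between 0.0632 and 0.204). The low-to-medium step, with 3.35% of all genes called, was -0.22 ± 0.17 (adjusted p = 0.657), with an interval of -0.56 to 0.11. In Coptidis the rise lay in the upper step, where 46.5% of all genes were called, at 0.54 ± 0.15 (adjusted p = 0.00291), while medium against low gave 0.03 with an interval of -0.28 to 0.34.

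**Figure D1:**
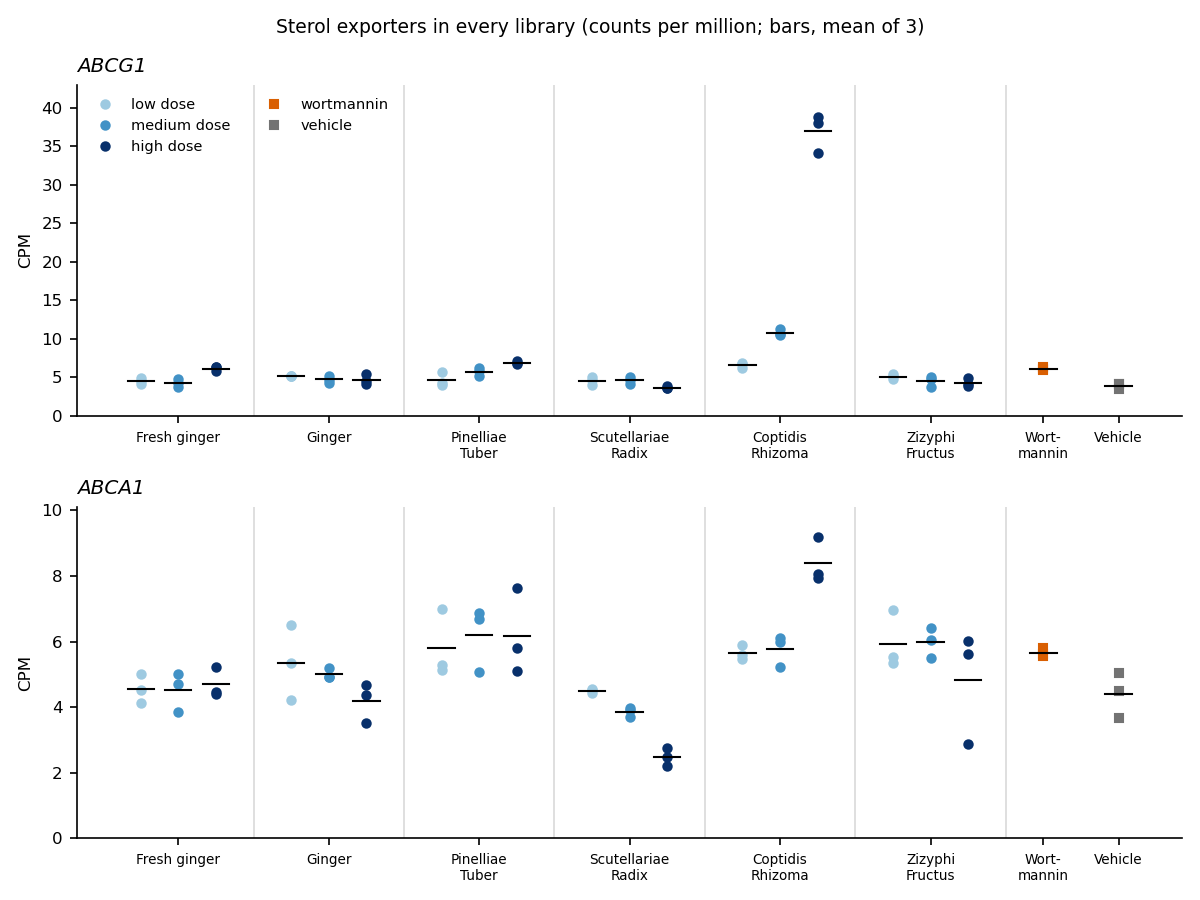
Counts per 1e6 of ABCG1 (upper) and ABCA1 (lower) in each of the 60 libraries, grouped by extract with doses from low to high, then wortmannin and vehicle; points are libraries and bars the means of 3. ABCG1 stood at 34.1 to 38.8 CPM in Coptidis high and at no more than 11.2 CPM elsewhere, and ABCA1 was lowest in Scutellariae high, at 2.21 to 2.75 CPM.

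The opposite direction of ABCA1 was tested as a difference between the extracts' high-against-low changes. Coptidis minus Scutellariae gave 1.43 ± 0.24 on the log2 scale (adjusted p = 2.38e-06), and for ABCG1 the same difference was 2.80 ± 0.15 (adjusted p = 4.36e-21), where 38.8% of all genes were called. ABCG1 itself had 3.58, 3.65 and 3.85 CPM in Scutellariae high, against 4.70, 3.98 and 5.04 CPM in Scutellariae low. Its log2 change there was -0.31 ± 0.12 (adjusted p = 0.0676), which did not pass the threshold. Without Scutellariae low replicate 2 it did, at -0.40 (adjusted p = 0.0348). In Scutellariae relative to Pinelliae Tuber, which shares its set, both exporters differed (6.3% of all genes called): -0.82 ± 0.16 for ABCG1 (adjusted p = 0.000412) and -0.91 ± 0.24 for ABCA1 (adjusted p = 0.0125). The ABCA1 difference was not called without Scutellariae high replicate 1, Pinelliae low replicate 2 or Pinelliae high replicate 3 (adjusted p = 0.0660, 0.0504 and 0.0972). Over the 15 pairs of extracts, 22 of 105 such differences of the 7 genes were called, in 8 pairs, and 17 of the 22 involve Coptidis. Against fresh ginger, 2 were called for Scutellariae (3.55% of all genes) and 3 for Coptidis (37.5%). For Coptidis 5 were called against ginger (39.5%) and 3 against Pinelliae (38.5%). For Zizyphi 1 was called against Scutellariae (9.35%) and 3 against Coptidis (41.4%). In the other 7 pairs 0 were called by edgeR: ginger (0%), Pinelliae (0.0903%) and Zizyphi (0.126%) against fresh ginger, Pinelliae (0.0361%), Scutellariae (4.26%) and Zizyphi (0%) against ginger, and Zizyphi against Pinelliae (0.00602%). In these 7 pairs 13 of 49 differences had an unadjusted p under 0.05, and DESeq2 called 1.

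The balance of the exporters shifted with the Coptidis dose. The ratio of ABCG1 to ABCA1 counts was 1.17 ± 0.0574 at the low dose, 1.87 ± 0.136 at the medium dose and 4.41 ± 0.269 at the high dose (SD, n = 3 each). In Scutellariae high the ratio was 1.5 ± 0.116, while in Scutellariae low it was 1.02 ± 0.132. It was 1.08 ± 0.0483 with wortmannin and 0.905 ± 0.0672 with vehicle. These ratios compare counts, not molecules, since the merged exons of ABCA1 span 11350 bases and those of ABCG1 6121.

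**Figure D2:**
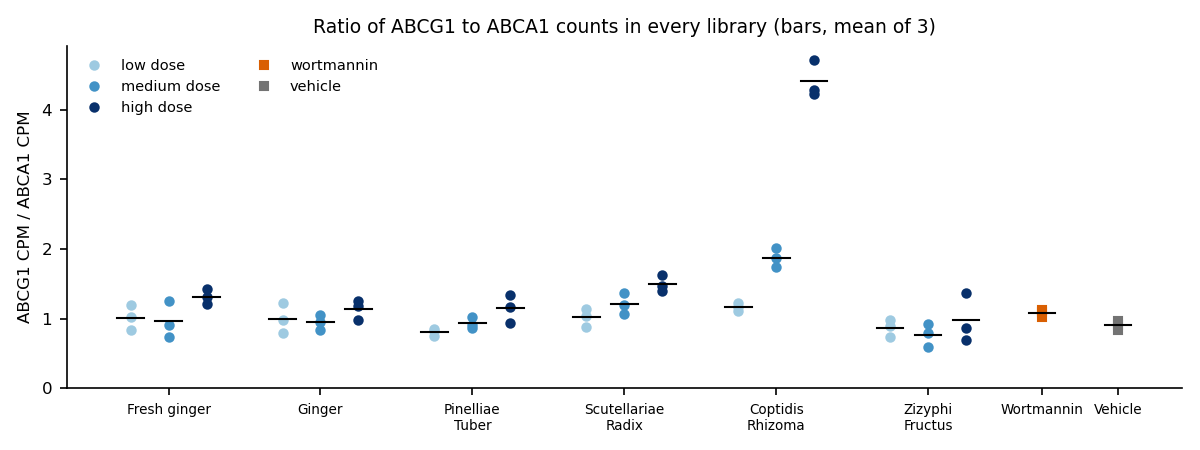
Ratio of ABCG1 to ABCA1 counts (vertical axis, no unit) in each library, by extract with doses from low to high, then wortmannin and vehicle; bars are means of 3. The Coptidis high libraries lay between 4.22 and 4.72, and the Coptidis medium libraries between 1.74 and 2.01.

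Among the receptors, the one that rose in Coptidis was NR1H2 (chr19:50329653-50382982, plus strand), which encodes the broadly expressed receptor LXR beta. It had 43.5, 44.1 and 37.0 CPM in Coptidis high, against 27.8, 31.0 and 30.3 CPM in Coptidis low. The libraries of the 2 doses did not overlap, and the log2 change was 0.48 ± 0.09 (adjusted p = 9.33e-06), all of it in the upper step (0.58 ± 0.09 high against medium, adjusted p = 6.00e-07, and -0.09 ± 0.09 medium against low, adjusted p = 0.920). NR1H3 (chr11:47248300-47269032, plus strand), which encodes LXR alpha, the form known from macrophages, liver and intestine, had 51.5 ± 3.84 CPM in Coptidis high and 50.3 ± 2.09 CPM in Coptidis low (SD, n = 3 each). Its log2 change of 0.03 had an approximate 95% interval of -0.12 to 0.18. RXRA (chr9:134317098-134440585, plus strand), a retinoid X receptor that pairs with either receptor, changed by -0.02 there, with an interval of -0.14 to 0.10. Across all 20 groups RXRA varied least: its highest group mean was 1.18 times its lowest, against 1.28 for NR1H3, 1.49 for NR1H2, 3.38 for ABCA1 and 10.0 for ABCG1.

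NR1H3 was called against vehicle with wortmannin and with 3 extract groups; in Coptidis high it was not (0.17 ± 0.08, adjusted p = 0.0638), but it was without vehicle replicate 1 (adjusted p = 0.00833) or Coptidis high replicate 3 (adjusted p = 0.0266). Wortmannin libraries had 57.2, 56.0 and 55.0 CPM, against 51.2, 44.6 and 41.6 CPM with vehicle, a log2 change of 0.30 ± 0.08 (adjusted p = 0.00519). Scutellariae high gave 0.26 ± 0.08 (adjusted p = 0.0126), not called without vehicle replicate 3 (adjusted p = 0.0649). Scutellariae medium also gave 0.26 (adjusted p = 0.0309), with libraries that overlapped those of vehicle, and was lost without vehicle replicate 2 or 3 or medium replicate 2 or 3 (adjusted p 0.0790 to 0.123). Coptidis medium gave 0.29 ± 0.08 (adjusted p = 0.0183), lost without vehicle replicate 2 or 3 or medium replicate 2 (adjusted p 0.0546 to 0.0895). RXRA was called in 1 of 41 comparisons, Coptidis medium against vehicle (209 ± 3.14 against 182 ± 5.61 CPM, log2 change 0.20 ± 0.06, adjusted p = 0.0491), and leaving out any single one of those 6 libraries ended that call (adjusted p 0.0563 to 0.206). The highest NR1H3 value of the series, 62.4 CPM, belonged to Zizyphi high replicate 3, while the other libraries of that group had 45.4 and 46.6 CPM.

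**Figure D3:**
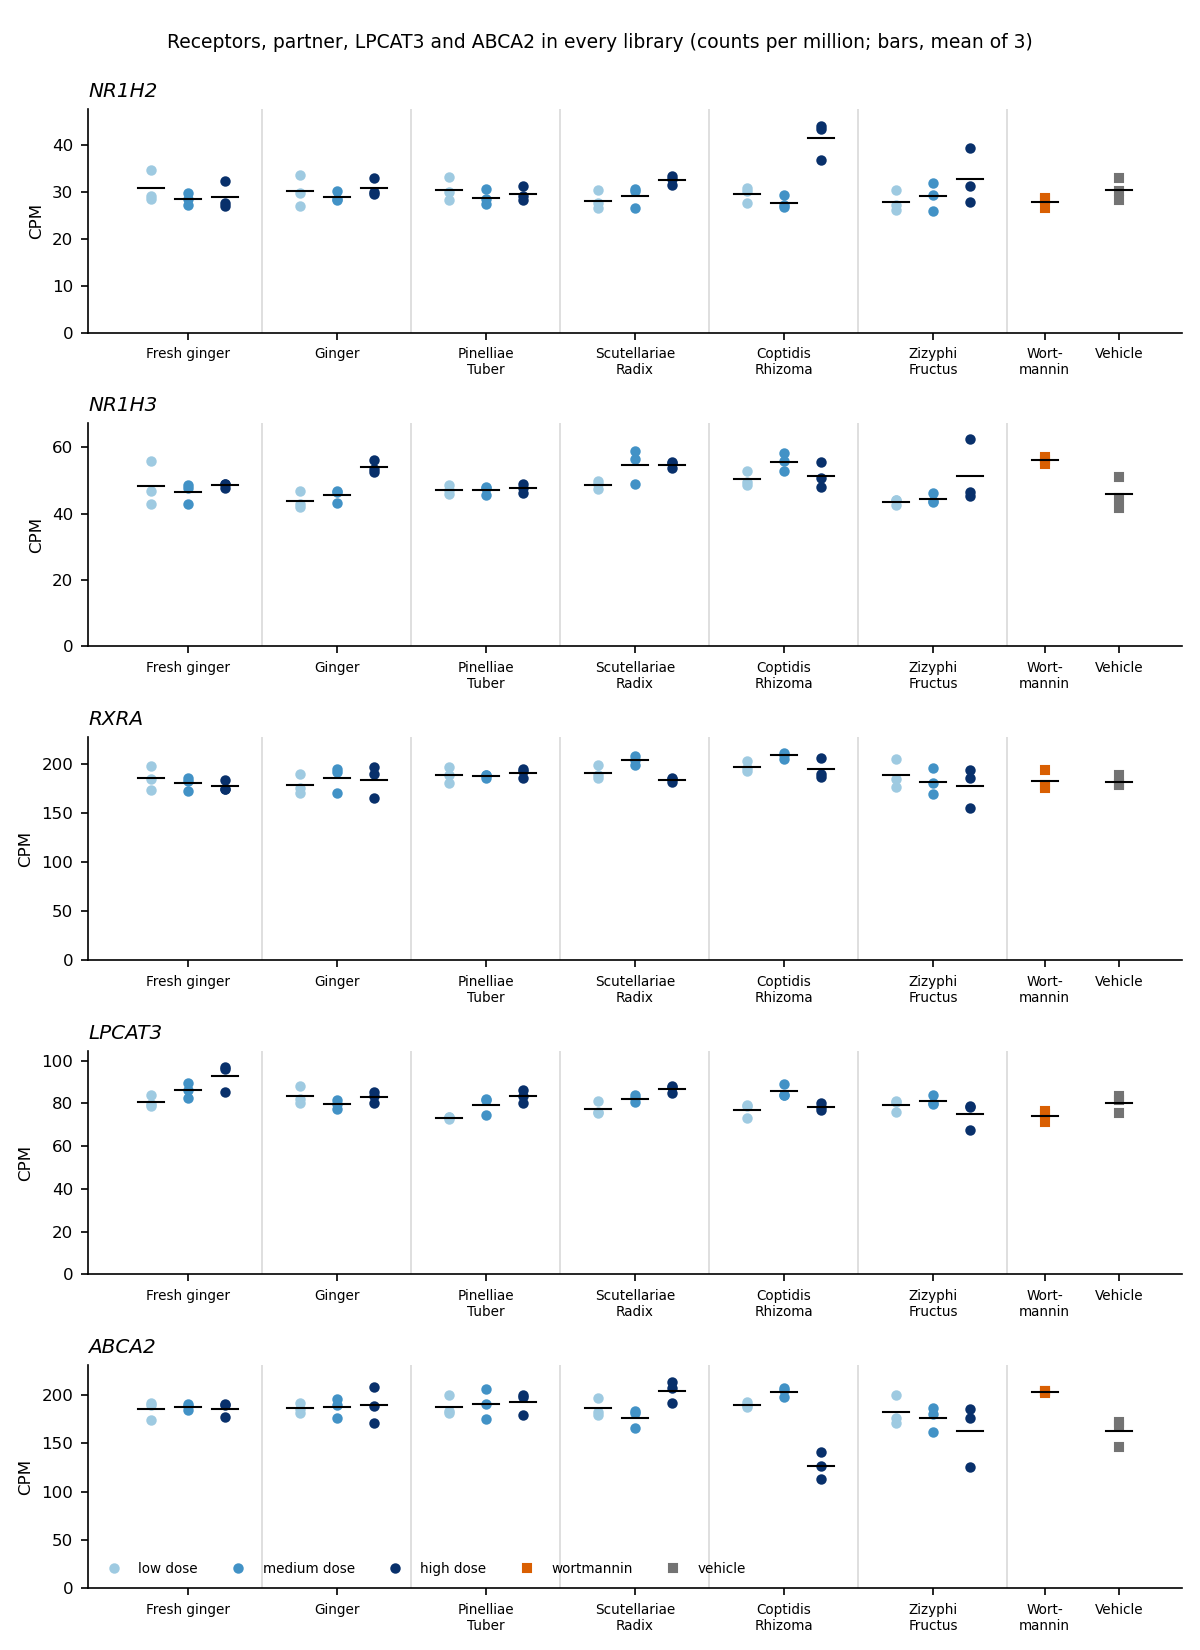
Counts per 1e6 of NR1H2, NR1H3, RXRA, LPCAT3 and ABCA2 in each library, by extract with doses from low to high, then wortmannin and vehicle; points are libraries and bars means of 3. By group mean NR1H2 was highest in Coptidis high (libraries at 37.0 to 44.1 CPM), where ABCA2 was lowest (114 to 141 CPM); Zizyphi high replicate 3, at 39.5 CPM of NR1H2 and 125 CPM of ABCA2, lay within both ranges.

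LPCAT3 (chr12:6976186-7018510, minus strand), an enzyme that puts polyunsaturated chains into phospholipids and is a known target of the receptors, moved by small amounts. It had 96.2, 85.4 and 97.1 CPM in fresh ginger high, against 78.6, 83.8 and 79.6 CPM in fresh ginger low. The groups did not overlap, and the log2 change of 0.20 ± 0.05 was called (adjusted p = 0.0305). That call was lost without high replicate 1 or 3 or low replicate 1 or 3 (adjusted p 0.113 to 0.208) and without the 4 libraries that stood apart (adjusted p = 0.0579). In Scutellariae LPCAT3 was at 86.9 ± 1.69 CPM at the high dose and 77.5 ± 3.24 CPM at the low dose (SD, n = 3 each), a log2 change of 0.17 ± 0.05 (adjusted p = 0.0193), lost without high replicate 1 or 3 or low replicate 2 or 3 (adjusted p 0.0625 to 0.11). In Coptidis it was lower by 0.12 on the log2 scale at the high than at the medium dose (adjusted p = 0.0448), and 5 of the 6 single-library omissions ended that call (high replicate 1, 2 or 3, medium replicate 1 or 3; adjusted p 0.0519 to 0.222). LPCAT3 shares 3100 exon bases with EMG1 on the opposite strand, and no source used here gives the strand setting of the counting, so its values are uncertain. EMG1 changed by -0.02 in both the fresh ginger and the Scutellariae comparison (adjusted p = 0.936 and 0.918). NR1H3 shares 189 exon bases with ACP2 in the same way.

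ABCA2 (chr9:137007227-137028922, minus strand), an endosomal and lysosomal transporter tied to sterol and sphingolipid traffic, went against ABCG1 in Coptidis high. Its libraries had 114, 141 and 126 CPM there, against 192, 187 and 189 CPM in Coptidis low. All 3 lay below the low-dose range, and ABCA2 fell by 0.58 ± 0.09 on the log2 scale (adjusted p = 1.21e-07). The medium dose stood at 204 ± 4.72 CPM, so the fall lay in the upper step, -0.68 ± 0.09 (adjusted p = 4.09e-09). Coptidis minus Scutellariae differed by -0.71 ± 0.12 for this gene (adjusted p = 3.78e-06). Across the 20 group means on the log2 scale, which share scaling and depth, ABCG1 and ABCA2 correlated at r = -0.57, and at 0.68 over the 18 groups other than Scutellariae high and Coptidis high; these are descriptions. ABCG1 and ABCA1 correlated at 0.67 and 0.53 over the same groups.

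Between the highest and lowest dose of each extract, 8 of 42 tests of the 7 genes were called, in 3 of 6 extracts. In Coptidis 4 genes were called (ABCG1, ABCA1 and NR1H2 higher, ABCA2 lower), where 52.3% of all genes were called. In Scutellariae 2 were called (LPCAT3 higher, ABCA1 lower), where 16.3% of all genes were. In fresh ginger 2 were called, both higher, where 1.79% of all genes were. The second of these, ABCG1, had 6.32, 5.79 and 6.36 CPM in fresh ginger high, against 4.95, 4.18 and 4.61 CPM in fresh ginger low, without overlap. Its log2 change of 0.45 ± 0.12 (adjusted p = 0.0440) was not called when any single library of the 6 was left out (adjusted p 0.0729 to 0.158), nor by DESeq2 (adjusted p = 0.0562). High against medium dose (0.458% of all genes called) it changed by 0.53 ± 0.12 (adjusted p = 0.0242), lost without high replicate 1 or 3 or medium replicate 1 or 2 (adjusted p 0.104 to 0.310). For 7 genes the count in Coptidis is near the share of all genes, so the number called there says little beyond the sizes given. Leaving out Scutellariae high replicate 1 or 3 or low replicate 3 left 1 gene called there, and leaving out the 4 libraries that stood apart gave 4, with NR1H2 at 0.21 and NR1H3 at 0.18 (adjusted p = 0.0450 and 0.0112).

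No gene of the 7 was called between high and low dose of ginger, Pinelliae Tuber or Zizyphi Fructus, where 0.915%, 0.0421% and 0.0482% of all genes were called. By unadjusted p under 0.05 they would number 1, 2 and 2, and DESeq2 called 1, 0 and 1. In Pinelliae, ABCG1 had 6.85, 6.73 and 7.17 CPM at the high dose, against 4.32, 4.01 and 5.77 CPM at the low dose, without overlap. Its log2 change of 0.51 ± 0.11 had an adjusted p of 0.0706, and without low replicate 3 it was 0.74 (adjusted p = 0.00350). In ginger, NR1H3 changed by 0.30 ± 0.08 (adjusted p = 0.0519), and by 0.34 without low replicate 3 (adjusted p = 0.0398). In Zizyphi, NR1H3 changed by 0.23 ± 0.08 (adjusted p = 0.0766). Without Zizyphi high replicate 1, NR1H2, NR1H3 and ABCA2 were called there, at 0.31, 0.30 and -0.29 (adjusted p = 0.0123, 0.00649 and 0.0185), and without high replicate 2 NR1H3 was called, at 0.29 (adjusted p = 0.0265). Both omissions leave Zizyphi high replicate 3, one of the libraries that stood apart, as 1 of 2.

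**Figure D4:**
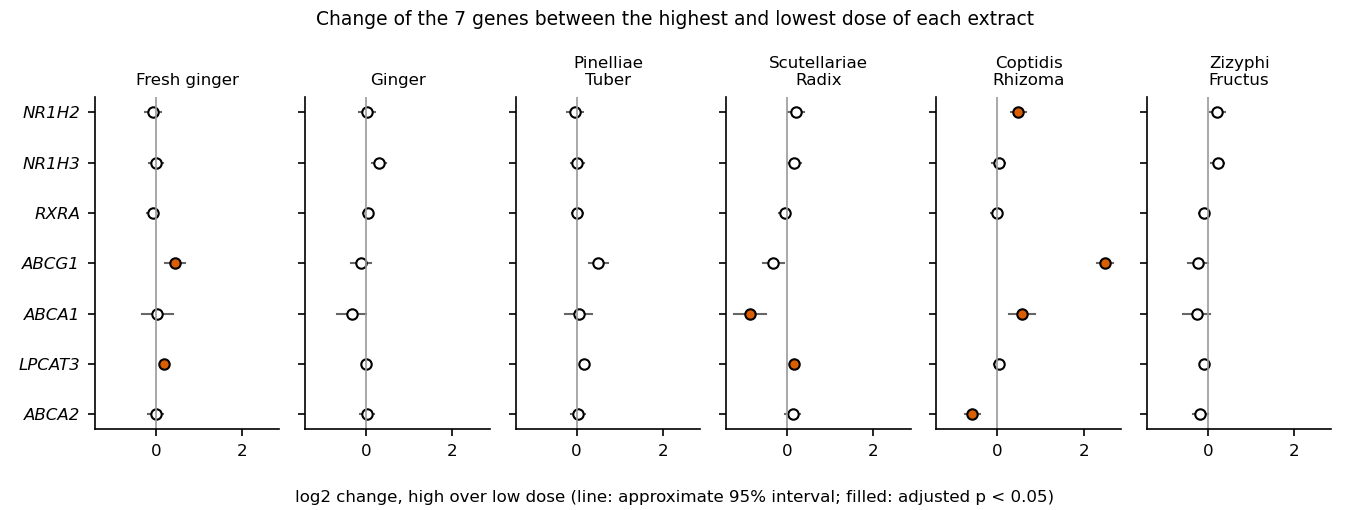
Log2 change between the high and the low dose of each extract (horizontal axis) for the 7 genes, with lines for the approximate 95% interval and filled points for an adjusted p under 0.05. In Coptidis ABCG1 stood at 2.49 and ABCA2 at -0.58, in Scutellariae ABCA1 at -0.85, and in ginger, Pinelliae and Zizyphi no point is filled.

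Over the 12 single dose steps 8 of 84 tests were called, 6 of them in Coptidis, and each is given above with its gene. Steps with 0 of the 7 called by edgeR were high against medium in ginger, Pinelliae and Zizyphi (0.247%, 0.0361% and 0.0301% of all genes) and medium against low in fresh ginger, ginger, Pinelliae and Zizyphi (0% each), besides Scutellariae medium against low. DESeq2 called 0 in these 8 steps too, and 7 of 56 tests had an unadjusted p under 0.05.

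Ginger and fresh ginger, the dried and the fresh rhizome, were compared at each dose, and 0 of 21 tests of the 7 genes were called, nor was any other gene (0% at each dose) in edgeR; DESeq2 called 0 of the 21 as well. At the high dose ABCG1 differed by -0.36 (interval -0.59 to -0.13, unadjusted p = 0.00306) and LPCAT3 by -0.16 (interval -0.26 to -0.06, unadjusted p = 0.00356), ginger minus fresh ginger. At the medium dose LPCAT3 differed by -0.11 (unadjusted p = 0.0356), and at the low dose no gene of the 7 had an unadjusted p under 0.05. The widest interval at the low dose was that of ABCA1, from -0.14 to 0.55. The test does not show that the extracts act alike on these genes.

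Against vehicle, ABCG1 was the gene called most often, in 7 of 19 treated groups, always higher. Wortmannin gave 6.12 ± 0.188 against 3.96 ± 0.347 CPM with vehicle (SD, n = 3 each), a log2 change of 0.62 ± 0.12 (adjusted p = 8.89e-05), without overlap. Coptidis high, medium and low gave 3.21 ± 0.10, 1.43 ± 0.11 and 0.72 ± 0.11 (adjusted p = 2.92e-31, 1.38e-14 and 4.50e-05), where 53.8%, 6.32% and 0.397% of all genes were called. Pinelliae high gave 0.79 ± 0.11 (adjusted p = 1.99e-05, 0.187% of all genes called) and fresh ginger high 0.63 ± 0.12 (adjusted p = 0.000756, 2.09% called), the second lost with only the libraries compared in the fit (adjusted p = 0.0551). Pinelliae medium gave 0.53 ± 0.11 (adjusted p = 0.0485, 0.0482% called), lost without any single vehicle library and without medium replicate 2 or 3 (adjusted p 0.109 to 0.823). The mean of the 6 low-dose groups also lay above vehicle for ABCG1, by 0.36 ± 0.09, with an adjusted p of 0.106, and 0 of the 7 genes were called in that comparison (0.0783% of all genes were, edgeR). In it 2 of the 7 genes had an unadjusted p under 0.05, ABCG1 (0.000340) and ABCA2 (0.00487), and DESeq2 called 0.

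ABCA2 was also higher with wortmannin, at 202, 204 and 204 CPM, against 146, 169 and 173 CPM with vehicle. The vehicle mean of ABCA2 ranked 18 of the 20 groups from high to low. The log2 change was 0.32 ± 0.09 (adjusted p = 0.00504), so 3 of the 7 genes were called where 20.6% of all genes were. Without vehicle replicate 1, the lowest of the vehicle libraries for ABCA2, that change was 0.25 and not called (adjusted p = 0.0835). In Scutellariae high 3 genes were called against vehicle (20.3% of all genes). ABCA1 fell by 0.84 ± 0.18 on the log2 scale (adjusted p = 0.000532), and NR1H3 rose as above. ABCA2 rose by 0.33 ± 0.09 (adjusted p = 0.00392, and 0.0676 without vehicle replicate 1). Against Scutellariae low, in the same set, neither NR1H3 (0.17 ± 0.08, adjusted p = 0.146) nor ABCA2 (0.13 ± 0.09, adjusted p = 0.346) was called. Coptidis high had the same 4 genes called in the same directions as against its low dose: ABCA1 rose by 0.92 ± 0.16 (adjusted p = 2.38e-06), NR1H2 by 0.45 ± 0.09 (adjusted p = 4.11e-05) and ABCA2 fell by 0.36 ± 0.09 (adjusted p = 0.000405); the 2 comparisons share the Coptidis high libraries. ABCA2 rose by 0.32 ± 0.09 in Coptidis medium (adjusted p = 0.0133), lost without vehicle replicate 1 or medium replicate 3 (adjusted p = 0.173 and 0.0690). LPCAT3 rose by 0.21 ± 0.05 in fresh ginger high (adjusted p = 0.0183), lost without vehicle replicate 1 or high replicate 1 or 3 (adjusted p 0.0760 to 0.250). NR1H3 was the 1 gene called in Scutellariae medium (6.64% of all genes). In the other 10 treated groups 0 of the 7 were called by edgeR and by DESeq2, with 18 of 70 tests at an unadjusted p under 0.05. These were fresh ginger medium and low (0% and 0% of all genes called), ginger high, medium and low (0.789%, 0.012% and 0%), Pinelliae low (0.012%), Scutellariae low (0.126%), and Zizyphi high, medium and low (0.0181%, 0% and 0.012%).

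Other genes reported as liver X receptor targets split in Coptidis. Of 17 listed, 11 were tested, and 5 rose and 3 fell between high and low dose (27.1% and 25.3% of all genes), with a list median of 0.44 against 0.0015 over all genes. Those that rose included SMPDL3A, a phosphodiesterase, by 1.34 ± 0.13 (adjusted p = 2.90e-12) and MYLIP, the ligase that marks the LDL receptor for breakdown, by 0.70 ± 0.07 (adjusted p = 6.93e-13). Those that fell were lipid synthesis genes, among them FASN, fatty acid synthase, by 1.13 ± 0.09 on the log2 scale (adjusted p = 5.34e-15) and SCD, the stearoyl-CoA desaturase, by 0.63 ± 0.07 (adjusted p = 2.02e-10). In Scutellariae 3 rose and 2 fell (7.92% and 8.42% of all genes), with a list median of -0.08 against -0.011. MYLIP fell there by 0.22 ± 0.07 (adjusted p = 0.0251), RNF145, a ligase of the sterol pathway, fell by 0.40 ± 0.05 (adjusted p = 1.21e-09), and SCD rose by 0.33 ± 0.07 (adjusted p = 0.000496). In the other 4 extracts 0 of the 11 were called by edgeR, and 6 of 44 tests had an unadjusted p under 0.05.

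Genes of cholesterol synthesis and uptake fell in Coptidis and rose in Scutellariae. Of 18 cholesterol synthesis and SREBP2 target genes, all tested, 18 fell in Coptidis high against low dose (list median -0.85), where 25.3% of all genes fell, and 17 rose in Scutellariae (list median 0.53), where 7.92% of all genes rose. SQLE, squalene epoxidase, changed by -0.98 ± 0.04 in Coptidis (adjusted p = 3.17e-27) and 0.63 ± 0.04 in Scutellariae (adjusted p = 1.22e-18), and INSIG1, which holds back SREBP processing, by -1.44 ± 0.06 (adjusted p = 1.06e-26) and 0.60 ± 0.06 (adjusted p = 5.31e-12).

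**Figure D5:**
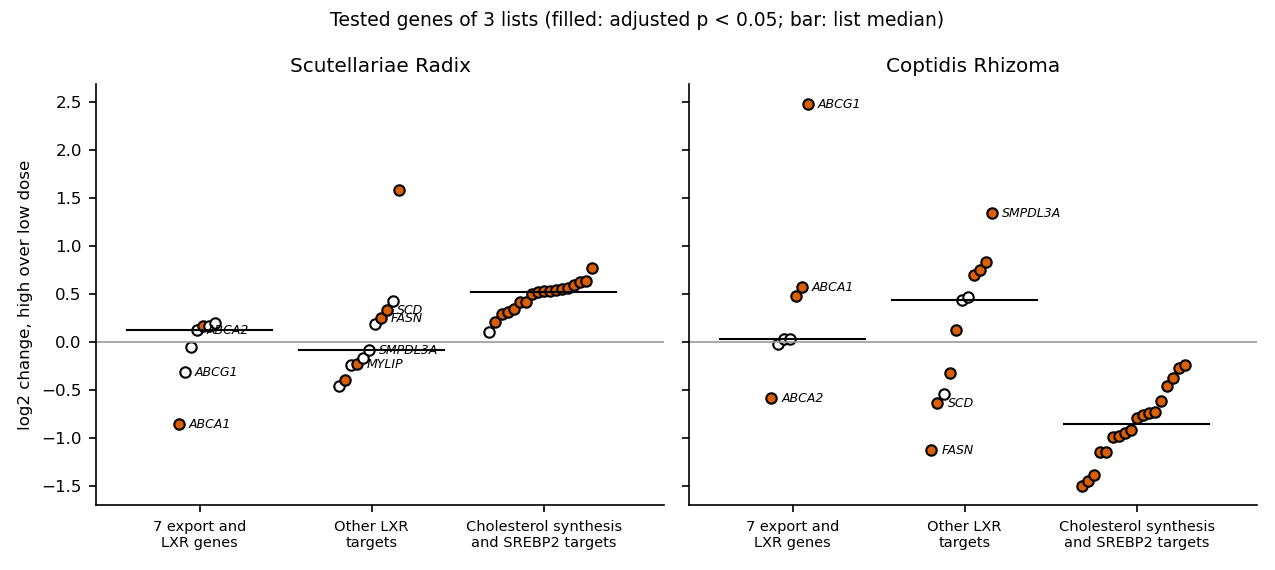
Log2 change between high and low dose (vertical axis) of every tested gene of 3 lists in Scutellariae Radix (left) and Coptidis Rhizoma (right); points are genes, filled for an adjusted p under 0.05, and bars are list medians. The cholesterol synthesis and SREBP2 list has a median of 0.53 in Scutellariae and -0.85 in Coptidis, while the other liver X receptor targets have medians of -0.08 and 0.44.

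Of 16 tested genes that handle sterols inside the cell, 4 rose and 6 fell in Coptidis (median 0.05), where 27.1% of all genes rose and 25.3% fell, and 6 rose and 3 fell in Scutellariae (median 0.03), where 7.92% rose and 8.42% fell. The Coptidis count is near the share of all genes. STARD4, a carrier of cholesterol in the cytosol, fell by 0.71 ± 0.06 on the log2 scale in Coptidis (adjusted p = 8.41e-14) and rose by 0.66 ± 0.06 in Scutellariae (adjusted p = 2.47e-12). SCARB1, the receptor for high-density lipoprotein, fell by 0.56 ± 0.05 (adjusted p = 3.78e-15) and rose by 0.42 ± 0.05 (adjusted p = 3.16e-10) in the same order. HSD3B7, a bile acid enzyme that acts on oxysterols, fell by 0.70 ± 0.11 in Coptidis (adjusted p = 2.56e-07), and NPC1, which exports cholesterol from lysosomes, rose by 0.67 ± 0.06 in Scutellariae (adjusted p = 6.80e-12).

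Of 16 tested partners and coregulators of the receptors, 7 rose and 2 fell in Coptidis (median 0.12), and 2 rose and 2 fell in Scutellariae (median 0.00077). These counts are near the shares of all genes called in either direction, 52.3% in Coptidis and 16.3% in Scutellariae. TTC39B, a protein that in mice promotes the breakdown of liver X receptors, rose by 1.08 ± 0.07 in Coptidis (adjusted p = 2.27e-18) and fell by 0.38 ± 0.08 in Scutellariae (adjusted p = 0.000307). PPARG fell by 0.29 ± 0.05 (adjusted p = 2.11e-06) and PPARD rose by 0.35 ± 0.06 (adjusted p = 1.00e-05) in Coptidis; both are receptors that also pair with RXRA. In Scutellariae VDR, the vitamin D receptor, rose by 0.33 ± 0.05 (adjusted p = 5.15e-07) and NCOA1, a coactivator, fell by 0.26 ± 0.08 (adjusted p = 0.0106).

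Relatives of ABCA1 and ABCG1 were mostly low. Of 12 other ABCA and ABCG genes 6 were tested, of which 3 rose and 2 fell in Coptidis (median 0.12; 27.1% and 25.3% of all genes) and 1 fell in Scutellariae (median -0.17; 8.42% of all genes). ABCG2, a drug and urate pump, fell by 0.58 ± 0.05 in Coptidis (adjusted p = 1.84e-13) and by 0.21 ± 0.05 in Scutellariae (adjusted p = 0.00246). ABCA10 rose to 5.79 CPM in Coptidis high, against 1.82 CPM in Coptidis low (log2 change 1.67 ± 0.18, adjusted p = 3.01e-11), and ABCA7, a phospholipid transporter, fell by 0.44 ± 0.08 (adjusted p = 7.37e-06). Of 12 relatives of LPCAT3, all tested, 3 rose and 6 fell in Coptidis (median -0.29; 27.1% and 25.3% of all genes) and 2 rose and 3 fell in Scutellariae (median -0.04; 7.92% and 8.42% of all genes). LPCAT1, which remodels phosphatidylcholine, fell by 1.15 ± 0.04 in Coptidis (adjusted p = 1.02e-27), where LPCAT3 itself changed by 0.03 with an interval of -0.07 to 0.13. LPCAT4 and MBOAT7 also fell in Coptidis, by 0.99 ± 0.06 (adjusted p = 2.76e-19) and by 0.35 ± 0.05 (adjusted p = 9.12e-09).

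The genes most like each exporter were sought among 10727 genes with a mean of at least 5 CPM, by the correlation of mean log2 CPM over the 20 groups. For ABCG1 these were CAPN5 (r = 0.96), PLEKHG2 (0.96) and MCCC1 (0.95). Without Scutellariae high and Coptidis high, over 18 groups, they were PHF13 (0.87), PBX2 (0.86) and PLEKHG2 (0.86). For ABCA1 they were IL13RA1 (0.94), DIP2C-AS1 (0.92) and PDCD4 (0.91), and over 18 groups LPIN2 (0.87), ADAMTS6 (0.87) and IL13RA1 (0.85). PLEKHG2 and IL13RA1 stand in both lists of their exporter. The groups share scaling, and most of the spread of ABCG1 comes from Coptidis, so these values are descriptions.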

How the data were processed

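The authors deposited expected counts for each gene from 100 bp paired reads, not scaled between libraries. Per the submitters' processing notes, STAR 2.7.3a and RSEM 1.3.3 were used with the hg38 build, after FastQC 0.11.9 and Trim Galore 0.6.5. The annotation is not given in the sources used here. Of the values 8.75% were not whole, and all were rounded. The 210 columns of other samples were not used. No library was a copy of another (smallest chi-square per gene 2.04).

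The test was edgeR 4.0.16 under R 4.3.3 (TMM, filterByExpr, robust quasi-likelihood test, 1 coefficient per group over 60 libraries, 40 residual degrees of freedom, common dispersion 0.004433). The 56 comparisons were each adjusted over 16609 genes by the Benjamini-Hochberg method and called under 0.05. Approximate standard errors are the absolute log2 change over the square root of F, and approximate 95% intervals use the normal quantile. CPM use TMM-scaled library sizes. Gene positions and lengths are from GENCODE 29. The 7 genes, the 10 other lists, the alternatives and the rule for named genes (the 7 genes, up to 3 genes of smallest p per list in Coptidis and Scutellariae, and 3 genes most like each exporter) were chosen with earlier results of these data known. The fit was tested on simulated data. Alternatives were DESeq2 size factors, no low-count filter, the DESeq2 1.42.0 Wald test, only the libraries compared, replicate blocks, single-library omissions, the 4 libraries that stood apart left out, and a linear dose trend. ABCG1 has no promoter window in the table used here.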

Additional observations from a re-analysis of the deposited data

Results flagged for a closer look

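Each result here is a difference between 2 extracts in the log2 change from low to high dose that passed the threshold in its own test (edgeR, adjusted over all genes), given as first minus second extract; that test is what singled it out.

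ABCG1 differed most in the 5 pairs that include Coptidis. Coptidis exceeded fresh ginger by 2.04 (adjusted p = 1.42e-15), ginger by 2.60 (adjusted p = 4.10e-20), Pinelliae by 1.98 (adjusted p = 3.64e-16) and Scutellariae by 2.80 (adjusted p = 4.36e-21), and Zizyphi minus Coptidis was -2.72 (adjusted p = 4.20e-21). In Scutellariae the ABCG1 change was also below that of fresh ginger, by -0.76 (adjusted p = 0.00378), and of Pinelliae, by -0.82 (adjusted p = 0.000412).

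ABCA1 differed between Coptidis and ginger by 0.90 (adjusted p = 0.00115), between Coptidis and Scutellariae by 1.43 (adjusted p = 2.38e-06) and between Zizyphi and Coptidis by -0.83 (adjusted p = 0.00191). Scutellariae minus Pinelliae was -0.91 (adjusted p = 0.0125; lost as given with the report's values). Scutellariae minus fresh ginger was -0.90 ± 0.26 (adjusted p = 0.0372). Of 12 single-library omissions 10 ended that call (adjusted p 0.0531 to 0.138), the exceptions being Scutellariae high replicate 3 and fresh ginger low replicate 2.

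NR1H2 in Coptidis exceeded fresh ginger by 0.55 (adjusted p = 0.000745), ginger by 0.45 (adjusted p = 0.00395) and Pinelliae by 0.52 (adjusted p = 0.00100). NR1H3 in Coptidis minus ginger was -0.27 (adjusted p = 0.0489), and 10 of 12 single-library omissions ended that call (adjusted p 0.0502 to 0.154), the exceptions being Coptidis high replicate 1 and ginger low replicate 3.

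ABCA2 in Coptidis lay below fresh ginger by -0.58 (adjusted p = 0.000121), ginger by -0.61 (adjusted p = 5.79e-05), Pinelliae by -0.61 (adjusted p = 4.90e-05) and Scutellariae by -0.71 (adjusted p = 3.78e-06). Zizyphi minus Coptidis was 0.41 (adjusted p = 0.00482; 0.0609 without Zizyphi high replicate 1). LPCAT3 in Zizyphi minus Scutellariae was -0.24 (adjusted p = 0.0262), lost without Scutellariae low replicate 2 or 3, Scutellariae high replicate 3 or replicate 3 of Zizyphi high or low (adjusted p 0.0594 to 0.175); EMG1, which overlaps it, differed there by 0.27 (adjusted p = 0.0910).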

How the results depend on the processing

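No called change of a gene of the 7 reversed its direction in the alternatives run, and 37 of 58 calls held in all of them. Those that held include the 4 Coptidis calls between high and low dose (ABCG1 2.44 to 2.55, ABCA1 0.50 to 0.61, NR1H2 0.44 to 0.56, ABCA2 -0.66 to -0.52) and ABCA1 in Scutellariae (-0.94 to -0.76). The other 21 were lost in at least 1 alternative. With only the libraries compared these were LPCAT3 in fresh ginger high against low dose and vehicle (adjusted p = 0.631 and 0.187), ABCG1 in fresh ginger high against low, medium and vehicle (adjusted p = 0.474, 0.176 and 0.0551) and in Pinelliae medium against vehicle (adjusted p = 0.559), NR1H3 in Scutellariae and Coptidis medium against vehicle (adjusted p = 0.156 and 0.0700), and, for Zizyphi, the differences of LPCAT3 from Scutellariae and of ABCA2 from Coptidis (adjusted p = 0.199 and 0.102). Genes of the 7 called between high and low dose numbered, against 2 in fresh ginger, 0 with no low-count filter, with only the libraries compared and with a linear trend, and 1 with DESeq2 and without the 4 libraries that stood apart. Against 0 in ginger, the number was 1 with no filter, with DESeq2 and without the 4. Against 0 in Pinelliae, it was 1 with no filter, without the 4, with a replicate block and with a replicate block within sets. Against 2 in Scutellariae, it was 1 with no filter, 4 without the 4 and 5 with only the libraries compared. Against 0 in Zizyphi, it was 1 with no filter and with DESeq2, and for the low doses against vehicle 2 with no filter, against 0. Leaving out single libraries gave 0 to 1 in fresh ginger, ginger and Pinelliae, 1 to 2 in Scutellariae, 4 in Coptidis and 0 to 3 in Zizyphi. The cause of these changes was not tested. Over all genes Scutellariae had 2714 calls between high and low dose and 4139 with only its libraries. Replicate numbers are not said to mark a shared culture, and 1 of 40 comparisons had every same-numbered pair correlated above 0.1 (0 of 21 within a set; correlations -0.37 to 0.343), so the block is given only here. Scaling by DESeq2 size factors shifted no median over all genes by more than 0.1. Both scalings centre on the typical gene, so this shift was bound to be small and does not test the scaling. For ABCA1 and ABCG1 the depth, as few as 46 and 49 reads in a library, limits the changes that can be seen.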
